A study of Mus musculus with 12 samples.

Results

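Jmjd2c, now named Kdm4c, was depleted by RNA interference in 3 of the 12 cultures of the series, and these 3 arrays were compared with the Luc arrays of replicates 4 to 6. These 6 arrays were chosen because they alternate with each other as the series lists them. The remaining Luc cultures, replicates 1 to 3, stand in the same way beside the Jmjd1a knockdown and served as no control here. Every culture was E14, a mouse embryonic stem (ES) cell line, grown without feeder cells on gelatin in serum with LIF, the cytokine that sustains self-renewal. Each culture was transfected with 2 µg of pSUPER puro plasmid, which expresses a short hairpin RNA. The hairpin targeted Jmjd2c in one group and firefly luciferase (Luc), which is absent from the mouse genome, in the other. Puromycin at 1 µg/ml for 4 days is stated in the labels of the Luc cultures, and for the Jmjd2c cultures neither its dose nor its length was available here. Total RNA was read on one-colour Illumina bead arrays with 46133 probes, and the labels call the arrays of a group biological replicates, so that p-values measure the spread between these cultures. One hairpin is named per target, and other hairpins were not analysed here.

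Kdm4c is one of the Kdm4 histone demethylases, which remove methyl groups from trimethylated and dimethylated lysine 9 and lysine 36 of histone H3. Methylation of lysine 9 marks silent chromatin, and its removal is associated with open promoters. ES cells keep the transcription factors Pou5f1, Sox2 and Nanog on and lineage genes low. A subset of cells in such cultures can pass to primitive endoderm, the extraembryonic lineage that lines the yolk sac and secretes basement membrane.

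The 6 arrays were similar in depth. The arrays averaged intensities of 238 to 245, with 14425 to 14996 probes brighter than 32, the floor to which all lower values were raised. The filter kept 14919 probes, those brighter than the floor on 3 or more of the 6 arrays. Across them log2 intensities correlated with r = 0.994 to 0.996 within a group and r = 0.978 to 0.981 between groups. The Luc arrays of the series did not form a single group. Between Luc replicates 4 to 6 and the Luc replicates numbered 1 to 3, r was 0.960 to 0.963, and between the Jmjd2c arrays and the latter it was 0.973 to 0.975. The levels of Luc replicates 1 to 3 are therefore given beside the main gene groups. The number of arrays, 3 a group, limits the precision of every value. Markers of other cell types were read first. None of 8 blood and macrophage markers passed the filter, and of 10 fibroblast markers 8, the collagens Col1a1, Col1a2 and Col3a1 among them, lay below the floor on all 6 arrays. The other fibroblast markers, the surface protein gene Thy1 and the receptor gene Pdgfrb, fell: Thy1 read 108, 89.6 and 87.6 in Luc and 34.7, 23 and 61 in Jmjd2c (log2 change -1.22 ± 0.24, adjusted p = 0.00715), and Pdgfrb read 102, 105 and 97.5 in Luc and 68.4, 57.1 and 62.9 in Jmjd2c (log2 change -0.69 ± 0.08, adjusted p = 0.000892). The summed intensity of the 10 markers was 247 to 263 on the Luc arrays and 135 to 199 on the Jmjd2c arrays, and its part in the falls described below was not tested. Of the 8 markers of undifferentiated ES cells, 7 passed the filter.

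In what follows, values per array are intensities as deposited, in the order Luc replicates 4, 5 and 6 and then Jmjd2c replicates 1, 2 and 3. A log2 change is the Jmjd2c mean minus the Luc mean of log2 intensities, floored at 32, with its SE. Adjusted p-values are from limma over all 14919 probes, and a probe that passed 0.05 is said to have risen or fallen. Where every array of 1 group lay at the floor, the fold is given as at least that size, and the floor then hides the spread, so that its SE and p-value do not measure it. In these bulk cultures a lower RNA level per cell and fewer cells of a type cannot be told apart.

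The targeted transcript was lower on every knockdown array. Kdm4c read 270, 278 and 266 in Luc and 106, 101 and 105 in Jmjd2c. The groups did not overlap, and the log2 change of -1.38 ± 0.06 left 38.3% of the Luc level (adjusted p = 2.09e-05). A two-sided exact permutation test over the 20 splits of the 6 arrays gave p = 0.1, the smallest these arrays allow. Of its relatives with the same substrate, Kdm4b read 123, 113 and 113 in Luc and 78.5, 78.1 and 85.6 in Jmjd2c and fell by 0.53 ± 0.07 on the log2 scale (adjusted p = 0.00152), again without overlap. On Luc replicates 1 to 3 Kdm4b read 60.3 to 75.9, below both groups, and Kdm4c 307 to 329, above both. Kdm4a read close to the floor in both groups, at 45.6, 48.4 and 36 in Luc and 44.7, 34.4 and 47.6 in Jmjd2c, and its groups overlapped (log2 change -0.04 ± 0.15, adjusted p = 0.864). Kdm4d did not pass the filter. Kdm3a, the gene first named Jmjd1a, was not called on either of its tested probes, with log2 changes of 0.11 and 0.17 (adjusted p = 0.171 and 0.0673). Among all 19 tested histone lysine demethylases 7 rose (36.8%, against 21.3% over all genes) and 2 fell (10.5%, against 18.7%). The largest of these rises were of Kdm5a, Jmjd1c and Jarid2, the last a partner of Polycomb complexes, with log2 changes of 0.47 ± 0.06, 0.43 ± 0.09 and 0.43 ± 0.10. None of the 7 reached 1.5-fold, and the count was 4 without Luc replicate 4, Luc replicate 5 or Jmjd2c replicate 3. Of 12 tested genes for H3 lysine 9 methylation and heterochromatin, 3 rose (25.0%, near the share over all genes) and 0 fell in limma. None of the 3 reached 1.5-fold, and the count was 1 without Jmjd2c replicate 2. Mtf2, a Polycomb-like protein that brings that complex to its targets, read 6076, 6037 and 6258 in Luc and 3991, 3478 and 3759.5 in Jmjd2c (log2 change -0.71 ± 0.07, adjusted p = 0.000457).

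Over the whole transcriptome 5637 of the 14919 probes passed the test, 2982 of them higher (20% of those tested) and 2655 lower (17.8%). Most of these changes were small. The median size of a called change was 0.42 on the log2 scale, and 4199 of the called probes changed by less than 1.5-fold. Larger changes were more often falls: 608 probes rose by at least 1.5-fold (4.08%) and 830 fell by as much (5.56%). At 2-fold or more 106 probes rose and 219 fell. At the level of genes, with the brightest probe of each of 8841 named genes, 1880 rose (21.3%) and 1649 fell (18.7%), and the median log2 change over all genes was 0.02. The counts of every gene list below are to be read against these shares of all genes. On 5608 of the 5637 called probes the groups did not overlap. Over all 14919 probes every Jmjd2c array lay above every Luc array on 4098 and below on 3637. A lack of overlap is therefore common here and adds little to a call. A group of 71 genes lay at the floor on every Luc array and above it on every Jmjd2c array, and 125 genes did the reverse.

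**Figure D1:**
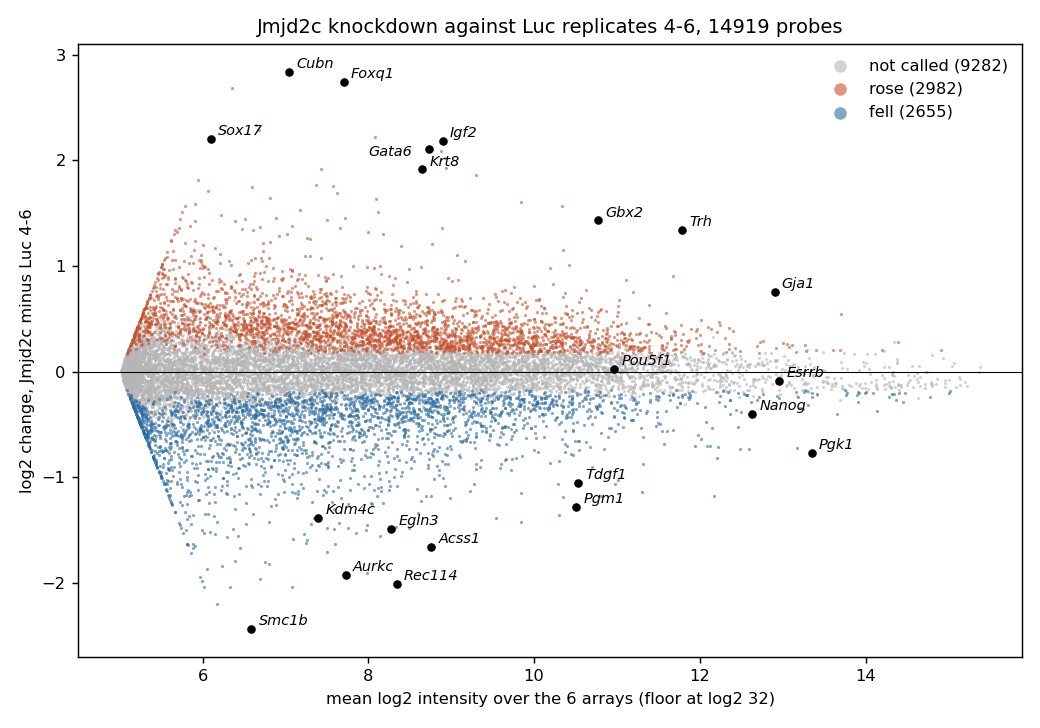
Log2 change (Jmjd2c minus Luc replicates 4 to 6, vertical axis) against mean log2 intensity over the 6 arrays (horizontal axis) for 14919 probes, coloured by limma call, with black points for named genes. Cubn and Foxq1 lie highest, Smc1b lies lowest, and Pou5f1 and Esrrb lie near 0.

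The 15 largest rises among called genes whose groups did not overlap held endoderm genes and genes of several signalling pathways. Rises and falls were ranked by the floored log2 change, which understates genes at the floor in 1 group, so that the order of those genes is not known. Cubn, which encodes cubilin, an endocytic receptor of the visceral endoderm, read 50.1, 53.3 and 45.3 in Luc and 343, 339 and 380 in Jmjd2c. Every Jmjd2c array lay above every Luc array (log2 change 2.84 ± 0.08, 7.15-fold, adjusted p = 1.47e-05). Foxq1, a forkhead transcription factor, read 88.7, 73.8 and 79.7 in Luc and 534, 580.1 and 508 in Jmjd2c, a 6.70-fold rise (log2 change 2.74 ± 0.09, adjusted p = 1.47e-05). Fgfbp1, which carries secreted fibroblast growth factors (FGFs), read 30.2, 32.8 and 21 in Luc and 189, 233 and 204 in Jmjd2c. On 2 of its 3 Luc arrays it lay under the floor, and it rose by 2.69 ± 0.09 on the log2 scale (adjusted p = 1.47e-05). Flrt3, a membrane protein that interacts with FGF receptors, read 48.9, 48 and 37.7 in Luc and 217, 208 and 249 in Jmjd2c and rose 5.03-fold, and Sp5, a zinc finger factor induced by Wnt signalling, read 50.6, 38.1 and 51.7 in Luc and 219, 222 and 239 in Jmjd2c and rose 4.88-fold.

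The others of the 15 rose between 3.38-fold and at least 4.61-fold. They were the endoderm genes Sox17, Gata6, Dab2 and Srgn, the growth factor gene Igf2, the keratin gene Krt8, the trypsin inhibitor gene Spink1, the iodide transporter gene Slc5a5, the growth cone gene Gap43 and the spalt-family factor gene Sall3. Igf2, an imprinted gene for a fetal growth factor, read 204, 231 and 237 in Luc and 1006, 1039 and 999 in Jmjd2c, and its groups lay far apart (log2 change 2.18 ± 0.07, adjusted p = 1.53e-05). Spink1 read 354, 329 and 312 in Luc and 1231, 1205 and 1172 in Jmjd2c, a 3.63-fold rise. On Luc replicates 1 to 3 it read 2903 to 2970, above every Jmjd2c array. The same held for Gap43, at 622 to 663 there, and Sall3, at 427 to 438. For the other 12 of the 15 rises Luc replicates 1 to 3 lay neither wholly above nor wholly below both groups. Trh, for thyrotropin-releasing hormone, and Gja1, for the gap junction protein connexin 43, rose at high intensity. Trh read 2246, 2341 and 2090.1 in Luc and 5678, 5539.7 and 5680.1 in Jmjd2c (log2 change 1.34 ± 0.06, adjusted p = 3.53e-05), against 7097 to 7986 on Luc replicates 1 to 3, and Gja1 read 5697, 5982 and 5985 in Luc and 10395, 10426 and 9072 in Jmjd2c (log2 change 0.76 ± 0.07, adjusted p = 0.000477).

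Genes of meiosis and of metabolism stood among the 15 largest falls. Smc1b, a cohesin subunit of meiotic chromosomes, read 207, 223 and 243 in Luc and 42.5, 33.8 and 49.4 in Jmjd2c. No Jmjd2c array reached the lowest Luc array (log2 change -2.43 ± 0.14, 5.40-fold lower, adjusted p = 6.79e-05). Zc3h6, which encodes a CCCH zinc finger protein, read 146, 161 and 159 in Luc and 29.7, 35 and 34.5 in Jmjd2c (log2 change -2.20 ± 0.07, adjusted p = 1.47e-05). Adssl1, for an adenylosuccinate synthase of the purine nucleotide cycle, read 248, 291 and 287 in Luc and 87.8, 65.7 and 52.3 in Jmjd2c (log2 change -2.03 ± 0.18, adjusted p = 0.000317). Acss1, for the mitochondrial acetyl-CoA synthetase, read 769, 769.6 and 767 in Luc and 231, 246 and 256 in Jmjd2c and fell 3.15-fold. Pla1a, Col26a1, Crtac1 and Pygl lay at or under the floor on every Jmjd2c array, and they fell at least 4.11-, 3.94-, 3.85- and 3.29-fold. The remaining falls were of the meiosis genes Rec114 and Aurkc and of Ier3, Jakmip1, Bcas1, Padi2 and Cbln1, by 3.18- to 4.02-fold. On Luc replicates 1 to 3 Smc1b, Zc3h6, Adssl1, Pygl and Padi2 lay below both groups, and the other 10 neither wholly above nor wholly below both. Adjusted p-values of the 15 falls ran from 1.47e-05 to 0.000317.

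**Figure D2:**
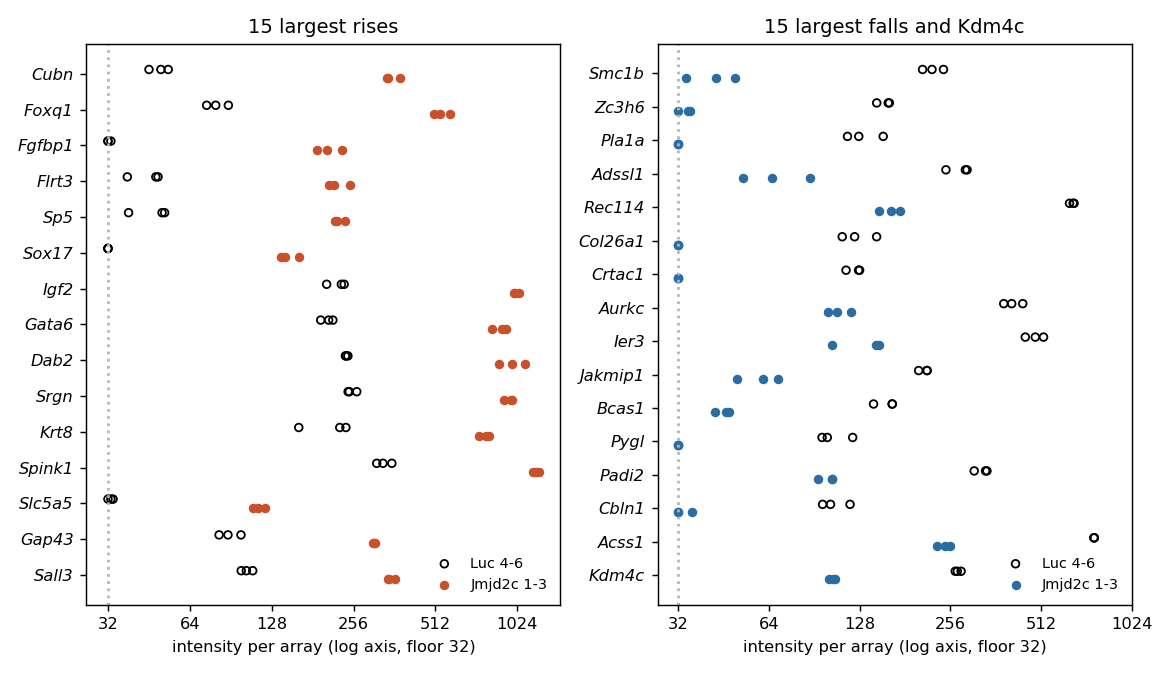
Intensity per array (horizontal log axis, floored at 32, dotted line) for the 15 largest rises (left) and the 15 largest falls with Kdm4c below them (right); open circles are Luc replicates 4 to 6 and filled circles Jmjd2c replicates 1 to 3. The 2 groups lie apart for every gene drawn, with Cubn and Smc1b at the top.

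The primitive and visceral endoderm list had the highest median log2 change, on the floored scale, of the 38 lists examined. Of 25 tested genes of this list 16 rose and 5 fell, and 14 of the rises reached 1.5-fold. The median log2 change was 0.77, against 0.02 over all genes. Of the 39 list genes on the array 14 did not pass the filter, and a gene that passed only through its high group had to differ. With the filter set at above 32 on all 6 arrays, 13 rose and 5 fell. The transcription factors differed among themselves. Gata6, a zinc finger factor that directs primitive endoderm, read 194, 215 and 207 in Luc and 825, 934 and 897 in Jmjd2c, a 4.31-fold rise with no overlap (log2 change 2.11 ± 0.07, adjusted p = 1.63e-05). Sox17, an SRY-related factor of the same lineage, read 23, 0.4 and -1.9 in Luc and 139, 143 and 162 in Jmjd2c, and all its Luc arrays lay at the floor, so that it rose at least 4.61-fold. Foxa1 rose by 0.70 ± 0.08 on the log2 scale, and on its Luc arrays it lay at the floor or just above it. Gata4, which works with Gata6, read 237, 239 and 259.6 in Luc and 229.5, 238 and 291 in Jmjd2c, and its groups overlapped (log2 change 0.04 ± 0.10, adjusted p = 0.795). Hnf4a, a factor of the visceral endoderm, fell from 99.5, 111 and 115 to 50.5, 49.7 and 70 (log2 change -0.95 ± 0.14, adjusted p = 0.00232). Sox7, a further marker of the lineage, lay under the floor on all 6 arrays.

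Receptors and matrix genes of this lineage rose with Gata6. Dab2, an adaptor for endocytosis, read 239, 241 and 244 in Luc and 979, 879.8 and 1091 in Jmjd2c (4.06-fold, adjusted p = 2.25e-05). Pdgfra, the receptor for platelet-derived growth factor that marks primitive endoderm, read 56.3, 73.3 and 61.5 in Luc and 222, 186 and 188 in Jmjd2c (log2 change 1.64 ± 0.12, adjusted p = 0.000149). Neither gene overlapped between groups. Srgn, for the proteoglycan serglycin, read 263, 247 and 245 in Luc and 971, 983 and 913 in Jmjd2c (3.80-fold), and Lrp2, the megalin receptor that works beside cubilin, rose by 0.77 ± 0.08. Amn, the membrane partner of cubilin, was not called (log2 change 0.21 ± 0.08, adjusted p = 0.0752). The chains of type IV collagen rose together: Col4a1 read 302, 303 and 283 in Luc and 719.5, 804 and 756 in Jmjd2c, and Col4a2 read 515, 518 and 539.8 in Luc and 1529, 1649 and 1625 in Jmjd2c. Their log2 changes were 1.36 ± 0.07 and 1.61 ± 0.06 (adjusted p = 3.83e-05 and 1.71e-05). Serpinh1, the collagen chaperone, rose 2.02-fold, Sparc 2.07-fold, Lamb1 1.89-fold and Lamc1 1.27-fold. Nid1, a linker of laminin and collagen, and Apoe fell, by 0.39 and 0.57 on the log2 scale. The summed intensity of 7 markers of primitive endoderm was 757 to 791 on the Luc arrays and 2418 to 2659 on the Jmjd2c arrays.

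Levels of these genes on Luc replicates 1 to 3 differed by gene. Gata6 read 280 to 319 and Sox17 30.6 to 44.6 there, below every Jmjd2c array. Col4a2 read 645 to 719 and Cubn 188 to 252, between Luc replicates 4 to 6 and the Jmjd2c arrays. Dab2 read 920.1 to 981, within the range of the Jmjd2c arrays. The median difference of Luc replicates 4 to 6 from Luc replicates 1 to 3 over the 25 genes was -0.37 on the log2 scale, against 0.14 over all genes. That difference shares Luc replicates 4 to 6 with the knockdown comparison.

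Glycolysis and hypoxia genes formed the opposite pattern. In low oxygen, hypoxia-inducible factors (HIFs) switch on most enzymes of glycolysis, together with regulators such as the prolyl hydroxylases Egln1 and Egln3, which mark HIF for destruction. Of 31 tested genes of this list 1 rose and 22 fell, 15 of them by at least 1.5-fold, and the median log2 change was -0.57. A list gene that passed the filter only through its high group had to differ, and with the filter at above 32 on all 6 arrays 21 fell. That count leaves out Adm and Bnip3, and it includes Ddit4, which was not called in the main fit. The hexokinase genes Hk1 and Hk2 fell 2.21- and 1.63-fold, and the phosphofructokinase genes Pfkl, Pfkp and Pfkm fell 1.47-, 2.09- and 1.58-fold. Aldoa, for aldolase, read 7631, 7891 and 8292 in Luc and 4559, 4937 and 4837 in Jmjd2c (log2 change -0.73 ± 0.06, adjusted p = 0.000311). Tpi1, for triosephosphate isomerase, read 7180.1, 7287 and 7606 in Luc and 4395, 4110.1 and 4817 in Jmjd2c (log2 change -0.73 ± 0.07, adjusted p = 0.000550). Pgk1, for phosphoglycerate kinase, read 13079, 13961 and 13765 in Luc and 8060.1, 7968 and 7984 in Jmjd2c (log2 change -0.76 ± 0.06, adjusted p = 0.000171). For all 3 enzymes every Jmjd2c array lay below every Luc array. Eno2 fell 2.71-fold, Ldha, for lactate dehydrogenase, 1.55-fold and Pkm, for pyruvate kinase, 1.21-fold. Gapdh and Pgam1 were not called on their brightest probes, with log2 changes of -0.12 ± 0.06 and -0.15 ± 0.12 (adjusted p = 0.156 and 0.386), and a further Gapdh probe fell by 0.21 (adjusted p = 0.0217).

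Other members of the list that fell included genes that low oxygen induces, and those given here were chosen after their values were seen, apart from Egln3 and Ndrg1. Egln3 read 505, 535 and 516 in Luc and 193, 189.6 and 174 in Jmjd2c (log2 change -1.48 ± 0.07, adjusted p = 2.62e-05), and Ndrg1, a gene induced by low oxygen, read 422, 422 and 410.4 in Luc and 153, 157 and 149.8 in Jmjd2c (log2 change -1.45 ± 0.06, adjusted p = 1.71e-05). Neither overlapped between groups. Vegfa, for the vascular growth factor, fell 1.90-fold and Egln1 1.70-fold. Adm and Bnip3 dropped to the floor on every Jmjd2c array, falls of at least 1.81- and 1.35-fold. The glucose transporter gene Slc2a3 fell by 0.40 on the log2 scale, whereas Slc2a1 was not called (log2 change -0.10 ± 0.06, adjusted p = 0.229). The others of the 8 list genes that were not called, beside Slc2a1, Gapdh and Pgam1, were Pdk3, P4ha1, Pfkfb4, Ddit4 and Higd1a, with log2 changes from -0.29 for Ddit4 to 0.14 for Pfkfb4, and a further P4ha1 probe fell by 0.50 (adjusted p = 0.0176). P4ha2, for a collagen prolyl hydroxylase, was the gene that rose (log2 change 0.21 ± 0.06, adjusted p = 0.0230), and it lost its call without Luc replicate 4 or 5 or without Jmjd2c replicate 1 or 2.

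Some genes of glycogen metabolism, for which no list was fixed, are given next, and apart from Pygl they were chosen after their values were seen, so that their falls are a description. Pygl, for liver glycogen phosphorylase, read 99.9, 96 and 121 in Luc and 21.4, 19.6 and 27.6 in Jmjd2c. Ppp1r3c, for a subunit that brings protein phosphatase 1 to glycogen, read 272, 259 and 267 in Luc and 96, 83.5 and 80 in Jmjd2c (log2 change -1.62 ± 0.08, adjusted p = 3.83e-05). Pgm1, for phosphoglucomutase, read 2263, 2168 and 2361 in Luc and 929, 899.8 and 977 in Jmjd2c (log2 change -1.28 ± 0.06, adjusted p = 4.1e-05). All 3 lay lower on every Jmjd2c array. Ppp1r3b, a related subunit, fell 2.20-fold. Gys1, for glycogen synthase, is a member of the glycolysis and hypoxia list and one of its 22 falls, at 1.43-fold. On Luc replicates 1 to 3 all these glycogen genes lay below both groups. Pgm1 read 385 to 397 there, Ppp1r3c 18.9 to 32.8, Ppp1r3b 7.8 to 22.5, Gys1 132 to 135.5 and Pygl -9.7 to -1.3. The part of this difference between Luc cultures in these falls was not tested.

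**Figure D3:**
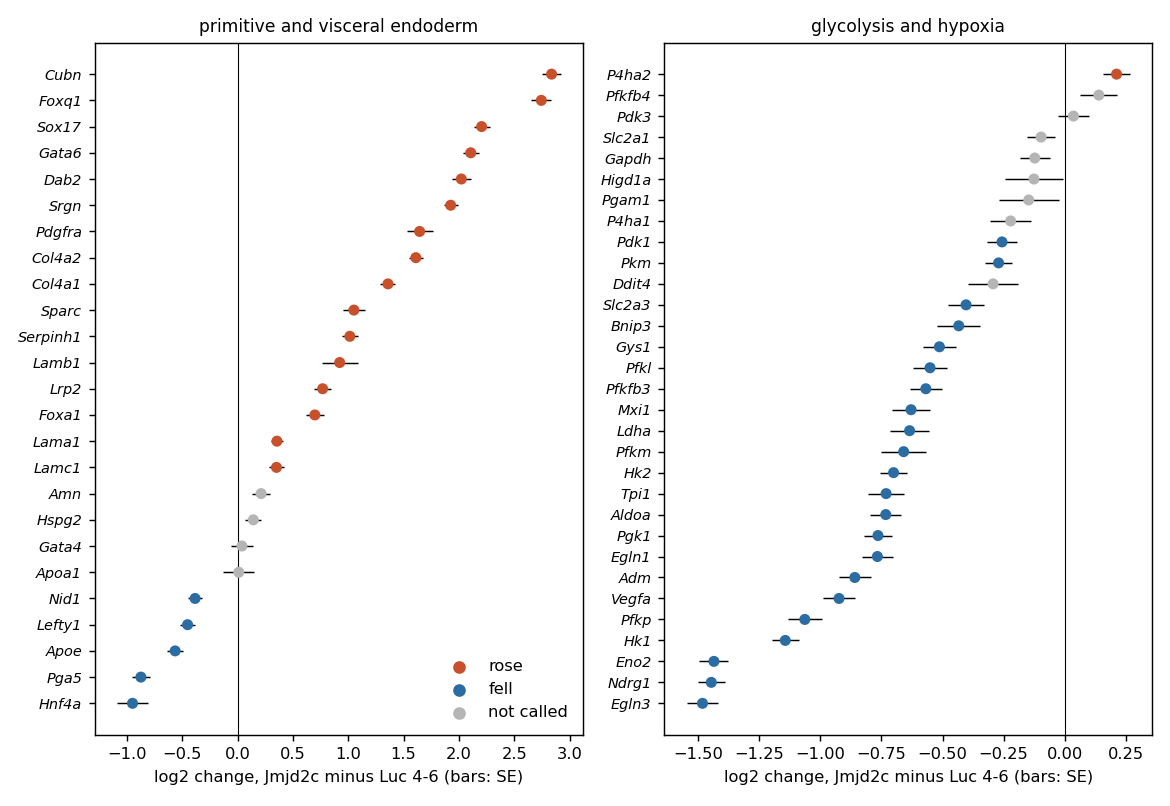
Log2 change with SE bars for every tested gene of the endoderm list (left, 25 genes) and the glycolysis and hypoxia list (right, 31 genes); colour gives the limma call. On the left 16 genes rose, up to Cubn, and on the right 22 fell, down to Egln3.

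Glycolysis and hypoxia genes also differed between the sets of Luc arrays, each in its own way. On Luc replicates 1 to 3 Egln3 read 149.6 to 163, Eno2 34.1 to 44.8 and Ndrg1 79.3 to 101, each below the Jmjd2c arrays. Pgk1 read 9308 to 9968 and Aldoa 4911 to 5216, the first between the groups and the second overlapping the Jmjd2c arrays. Ldha read 5032 to 5198, within the range of Luc replicates 4 to 6, and Pkm read 6064 to 6439, above both groups. The median of Luc replicates 4 to 6 minus Luc replicates 1 to 3 over the 31 genes was 0.64 on the log2 scale. The part of this difference between Luc cultures in the falls against Luc replicates 4 to 6 was not tested.

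Upstream sequence of 4 genes of this list is shown, because HIF proteins bind a short core, ACGTG or GCGTG, and these genes fell without overlap and differ in how many cores they hold. The stretches are the 250 bases before the annotated start (RefSeq, GRCm38.p6), 5′ to 3′ on the gene's strand, in lower case with each core in capitals on either strand. They lie at chrX:106186850-106187099 (plus strand), chr6:82774455-82774704 (minus), chr12:54203875-54204124 (minus) and chr6:124814159-124814408 (minus), and no annotated gene overlaps them.
Pgk1: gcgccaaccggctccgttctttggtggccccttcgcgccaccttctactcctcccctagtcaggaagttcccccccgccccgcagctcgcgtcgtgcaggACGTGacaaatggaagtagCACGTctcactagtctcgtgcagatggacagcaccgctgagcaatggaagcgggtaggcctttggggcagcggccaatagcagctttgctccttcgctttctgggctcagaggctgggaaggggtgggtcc
Hk2: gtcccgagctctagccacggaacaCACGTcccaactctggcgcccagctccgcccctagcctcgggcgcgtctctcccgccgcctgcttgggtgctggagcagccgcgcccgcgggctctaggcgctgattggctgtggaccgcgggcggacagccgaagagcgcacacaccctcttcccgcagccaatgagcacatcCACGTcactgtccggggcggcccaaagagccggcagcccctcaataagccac
Egln3: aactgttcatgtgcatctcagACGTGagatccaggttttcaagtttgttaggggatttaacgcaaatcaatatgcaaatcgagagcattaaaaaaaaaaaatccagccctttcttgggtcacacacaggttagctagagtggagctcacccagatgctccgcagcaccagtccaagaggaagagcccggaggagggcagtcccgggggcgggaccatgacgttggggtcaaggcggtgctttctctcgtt
Tpi1: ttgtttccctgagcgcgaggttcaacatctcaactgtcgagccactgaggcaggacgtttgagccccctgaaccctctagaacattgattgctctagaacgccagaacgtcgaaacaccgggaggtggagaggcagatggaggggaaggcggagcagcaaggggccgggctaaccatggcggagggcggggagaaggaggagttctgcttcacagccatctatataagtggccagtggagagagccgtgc
Pgk1 holds 2 cores, Hk2 holds 2, Egln3 holds 1, and Tpi1 holds 0. Of the 22 genes that fell 20 had such a stretch in the RefSeq table, and 17 of these held a core in at least 1 of their stretches. A core was present in 69.7% of the 33 stretches of genes of this list that fell and in 76.2% of the 42 stretches of all tested genes of the list. Over the 9331 stretches of all genes tested on these arrays the share was 57.5%, and it was 38.6% over all 32851 stretches in RefSeq's set. The median G and C content was 61.0% in the stretches of the list's tested genes, 60.0% in those of all genes tested and 52.4% in the whole table. A match is a description of these letters, and no binding was measured here.

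Germline and meiosis genes fell in most cases. Of 17 tested genes 1 rose (5.88%, against 21.3% over all genes) and 12 fell (70.6%, against 18.7%). Of the falls 7 reached 1.5-fold, and the median log2 change was -0.49. A further 18 list genes on the array did not pass the filter. Stra8 passed it only through its Luc arrays and had to be lower. With the filter at above 32 on all 6 arrays 1 rose and 10 fell. Rec114, a protein of the meiotic break machinery, read 655, 637 and 659 in Luc and 175, 163 and 149 in Jmjd2c (log2 change -2.01 ± 0.07, adjusted p = 1.71e-05). Aurkc, for the Aurora kinase of germ cells, read 409, 445 and 385 in Luc and 100.2, 107 and 119.9 in Jmjd2c (log2 change -1.92 ± 0.09, adjusted p = 3.21e-05). Both lay far below on every Jmjd2c array. Stra8, which is induced at entry into meiosis, read 85.9, 91.4 and 91.1 in Luc and 4.6, 7.6 and 8.2 in Jmjd2c, a fall of at least 2.79-fold. Dazl, an RNA-binding protein of germ cells, fell 1.93-fold, Mov10l1, of the piRNA pathway, 2.57-fold, and Kit, for the stem cell factor receptor, 1.40-fold. Tex19.1 was the gene that rose (log2 change 0.33 ± 0.08, adjusted p = 0.0181), and it lost its call without Luc replicate 4 or 5 or without Jmjd2c replicate 2. On Luc replicates 1 to 3 Smc1b read 20.5 to 26, Dazl 21 to 37.9 and Rec114 217 to 229.9, and the median of Luc replicates 4 to 6 minus Luc replicates 1 to 3 over the 17 genes was 1.29 on the log2 scale.

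Signalling genes of the FGF pathway rose in the larger part. Of 23 tested genes 13 rose and 3 fell, with a median log2 change of 0.33. With the filter at above 32 on all 6 arrays 10 rose and 1 fell. The median of Luc replicates 4 to 6 minus Luc replicates 1 to 3 over the 23 genes was -0.63 on the log2 scale, larger in size than the median change and of opposite sign, and its part in the rises was not tested. Among receptors, Fgfr2 read 224, 234 and 210.1 in Luc and 506, 514 and 501 in Jmjd2c (log2 change 1.19 ± 0.06, adjusted p = 4.96e-05), and the coreceptor gene Klb rose by 1.58 ± 0.12 on the log2 scale. The groups of Fgfr2 did not overlap. Of the genes that ERK signalling induces and that damp it, Dusp6 rose by 0.77 ± 0.09, Dusp4 by 0.90 ± 0.10, Spry4 by 0.53 ± 0.08 and Spred1 by 0.53 ± 0.09 on the log2 scale, and Il17rd rose at least 1.32-fold from Luc arrays under the floor. Spry1, Spry2 and Dusp5 were not called, with log2 changes of -0.02 ± 0.17, 0.03 ± 0.08 and 0.09 ± 0.07 (adjusted p = 0.935, 0.828 and 0.393), nor was the ERK-induced factor gene Etv5 (0.13 ± 0.07, adjusted p = 0.207), and Spred2 was not among the genes tested. On Luc replicates 1 to 3 Spry4 read 674 to 688, above both groups. Phlda1 read 162, 155 and 149 in Luc and 501, 464 and 484 in Jmjd2c (3.11-fold, adjusted p = 1.77e-05). The ligand genes differed: Fgf10 rose 2.04-fold, while Fgf4, the main FGF of ES cells, and Fgf15 fell 1.64- and 2.13-fold. Ier3, an early response gene, fell from 490.1, 454 and 522 to 148, 145 and 104.

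The Id genes, for inhibitors of differentiation, are targets of bone morphogenetic protein (BMP) signalling, and Id1, Id2 and Id3 rose. Id1 read 185, 180 and 186 in Luc and 444, 453 and 463 in Jmjd2c (log2 change 1.30 ± 0.06, adjusted p = 2.28e-05). Id2 and Id3 rose 2.60- and 2.38-fold, and the mediator genes Smad1 and Smad5 1.40- and 1.33-fold. On Luc replicates 1 to 3 Id1 read 489 to 510.2, Id2 285 to 320 and Id3 268 to 312, each above every Jmjd2c array. The ligand gene Bmp7 fell 1.72-fold. In the BMP list as a whole 6 of 12 tested genes rose (50.0%, against 21.3% over all genes) and 1 fell (8.33%, against 18.7%). Targets of the actin-linked factors SRF and YAP and immediate early genes rose in 12 of 20 cases (60.0%, against 21.3% over all genes). They fell in 3 (15.0%, against 18.7%). The actin gene Acta2, at 6.3 to 22.3 in Luc, passed the filter only through its Jmjd2c arrays and had to be higher. Ccn2, a YAP target, read 379, 369 and 351 in Luc and 748, 877 and 743 in Jmjd2c (2.15-fold, adjusted p = 0.000171), and Rhob, for a small GTPase of the actin cytoskeleton, rose 2.31-fold. The phosphatase gene Dusp1 and Fos fell 1.69- and 1.55-fold, and Fos lost its call without Luc replicate 5, Jmjd2c replicate 1 or Jmjd2c replicate 2. On Luc replicates 1 to 3 Rhob read 162 to 205 and Dusp1 584 to 632, below both groups, as did Acta2. Ccn2 and Fos lay neither wholly above nor wholly below both there.

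Some markers of other lineages rose. Of 15 tested trophectoderm and placenta genes 9 rose and 1 fell, with a median log2 change of 0.44. Tead4, at 25, 28.4 and 7.9 in Luc, passed the filter only through its Jmjd2c arrays and had to be higher. With the filter at above 32 on all 6 arrays 6 rose and 1 fell. With the filter on 3 arrays 0 fell in limma without Jmjd2c replicate 1. Krt8 and Krt18, the paired keratins of simple epithelia, both rose: Krt8 read 228, 240 and 161 in Luc and 744, 785 and 809 in Jmjd2c (log2 change 1.92 ± 0.15, adjusted p = 0.000194), and Krt18 rose 1.74-fold. Cdx2, which specifies trophectoderm, read 16.7, 34.8 and 9.4 in Luc and 61.3, 70.4 and 61.8 in Jmjd2c, and Gata2 rose 1.96-fold from near the floor. Hand1 and Tpbpa lay under the floor on all 6 arrays. Of 9 tested neuroectoderm genes 5 rose and 1 fell. Sox21 read 394, 412 and 397 in Luc and 820.3, 836 and 828 in Jmjd2c (log2 change 1.05 ± 0.06, adjusted p = 4.85e-05), Pax6 rose 1.87-fold, and Gbx2, also a gene of naive ES cells, read 1060.4, 1039 and 1085 in Luc and 2857, 2829 and 2911 in Jmjd2c (2.70-fold, adjusted p = 1.71e-05). The neural marker Sox1 lay under the floor. Of 10 tested genes of the primed epiblast, the state after implantation, 5 rose and 1 fell, among them Pou3f1 (2.73-fold) and the DNA methyltransferase gene Dnmt3b (1.55-fold). Otx2 was not called (log2 change -0.20 ± 0.09, adjusted p = 0.122). On Luc replicates 1 to 3 Pou3f1 read 340 to 400, Dnmt3b 7070 to 7257 and Gbx2 4215 to 4495, each above every Jmjd2c array. Krt18 lay below both groups there, and Krt8, Cdx2, Gata2, Tead4, Sox21 and Pax6 lay neither wholly above nor wholly below both. The median of the control Luc arrays minus Luc replicates 1 to 3 was -0.35 over primed epiblast genes, against a median change of 0.30. It was -0.26 for neuroectoderm and 0.0 for trophectoderm, and its part in these rises was not tested.

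**Figure D4:**
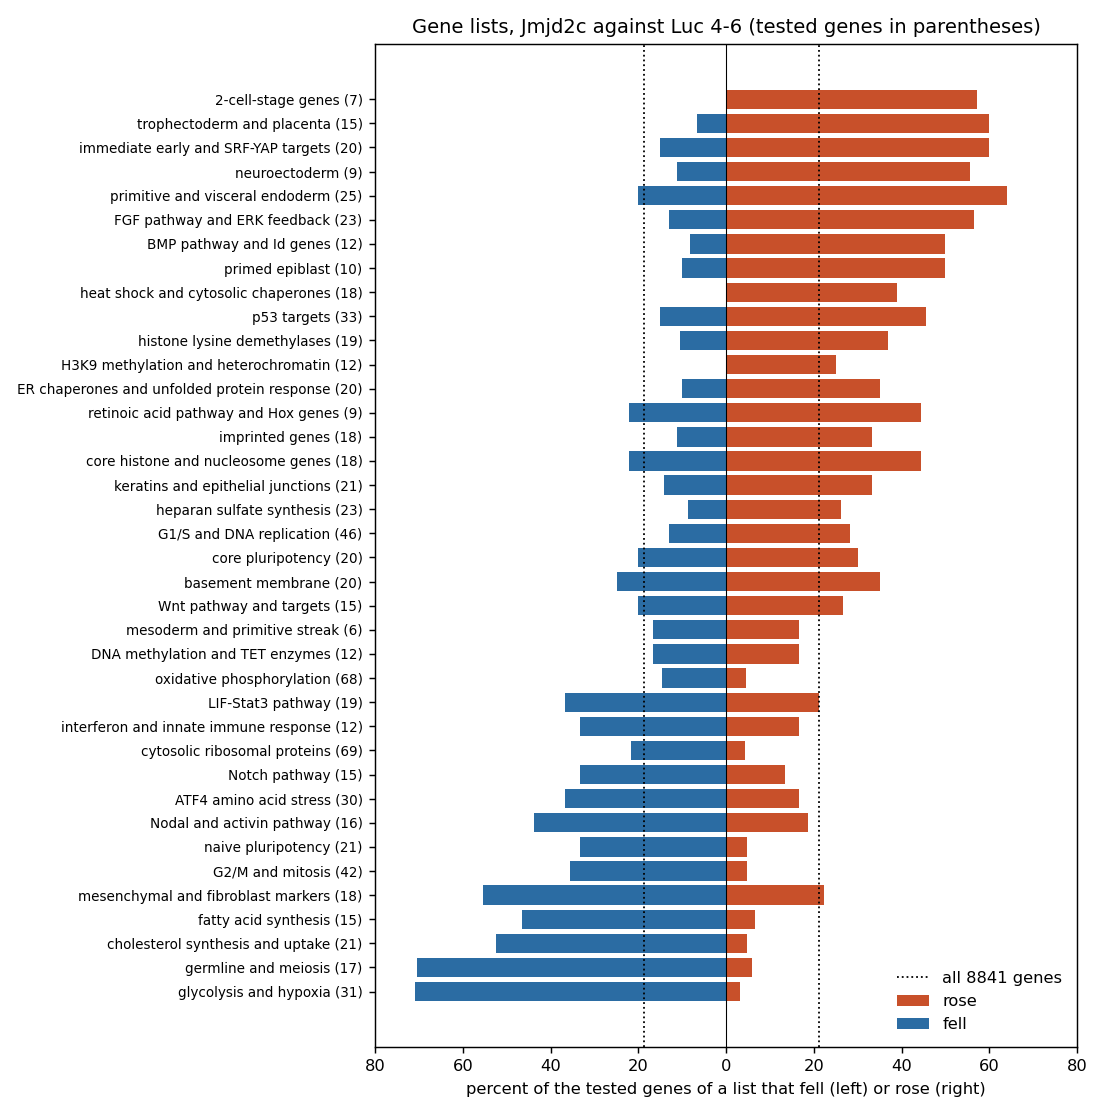
Percent of the tested genes of each of 38 lists that rose (right) or fell (left) against Luc replicates 4 to 6, with the number tested in parentheses; dotted lines mark the shares over all 8841 genes, 21.3% and 18.7%. Glycolysis and hypoxia and germline and meiosis lie at the bottom, with 71.0% and 70.6% of genes lower.

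Among core pluripotency factors some fell, some rose and others were not called. Pou5f1 read 2038, 2084 and 1821 in Luc and 2028, 1980 and 2037 in Jmjd2c, its groups overlapped, and it was not called (log2 change 0.03 ± 0.07, adjusted p = 0.792). Sox2 read 2580.2, 2498 and 2391 in Luc and 2139, 2159 and 2284 in Jmjd2c, lower on every Jmjd2c array but not called (log2 change -0.18 ± 0.06, adjusted p = 0.0546). A further Sox2 probe fell by 0.49 (adjusted p = 0.000886), so that the probes disagree. Nanog read 7036, 6902 and 7973 in Luc and 5548, 5609 and 5429.7 in Jmjd2c and fell by 0.40 ± 0.07 (adjusted p = 0.00552), and its other tested probes fell by 0.66 and 0.61. Tdgf1, the Nodal coreceptor Cripto, read 1994, 2324 and 2079 in Luc and 1003, 1009.7 and 1068 in Jmjd2c (2.07-fold lower, adjusted p = 0.000153), and Eras, a Ras protein of ES cells, fell 1.60-fold. Sall4, Rif1, Zfp281 and Dppa2 rose, by 0.36 to 0.57 on the log2 scale. In all, 6 of 20 tested genes of the list rose and 4 fell.

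Naive pluripotency genes fell or were not called, with Gbx2 as the exception. Of 21 tested genes 1 rose and 7 fell, and the median log2 change was -0.10. Tcl1, an Akt coactivator, read 255, 271 and 236 in Luc and 86.7, 82.6 and 93.1 in Jmjd2c (2.90-fold lower, adjusted p = 4.24e-05), and Jam2 and Tbx3 fell 1.61- and 1.31-fold. Esrrb, Klf4 and Zfp42 were not called, with log2 changes of -0.09 ± 0.06, -0.05 ± 0.07 and -0.10 ± 0.06 (adjusted p = 0.302, 0.602 and 0.209). Tfcp2l1 was not called either (log2 change -0.19 ± 0.09, adjusted p = 0.123). The summed intensity of 8 ES cell markers was 25948 to 27133 on the Luc arrays and 22303 to 22999 on the Jmjd2c arrays, with Dppa5a under the floor throughout.

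Lipid synthesis genes fell in part. Of 21 tested cholesterol genes 1 rose and 11 fell, with a median log2 change of -0.25. The fall was largest for Dhcr7, the last enzyme of the pathway (1.60-fold, adjusted p = 0.000622), and Srebf2, the transcription factor of the pathway, read 387, 385 and 393 in Luc and 264, 269 and 293 in Jmjd2c (log2 change -0.50 ± 0.06). Scap, the escort of that factor, was the gene that rose (1.46-fold). The count of 11 was 7 without Luc replicate 4 and 6 without Luc replicate 5 or 6. Of 15 tested fatty acid genes 1 rose and 7 fell. Scd1 and Scd2, for stearoyl-CoA desaturases, fell 2.19- and 1.76-fold, and Acss2, for the cytosolic acetyl-CoA synthetase, 2.18-fold. Fasn, for fatty acid synthase, rose 1.30-fold. Fabp3, a fatty acid carrier, read 12037, 11764 and 11934 in Luc and 7117, 7032 and 7496 in Jmjd2c (log2 change -0.72 ± 0.06, adjusted p = 0.000208). On Luc replicates 1 to 3 Acss2 read 47.8 to 65.7 and Fabp3 3782 to 4130, below both groups, and Fasn 5649 to 6289, above both. Scd1 and Scd2 lay between the groups there. The median of Luc replicates 4 to 6 minus Luc replicates 1 to 3 was 0.40 over the fatty acid genes and 0.15 over the cholesterol genes, and its part was not tested.

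Of 42 tested genes of G2/M and mitosis 2 rose (4.76%) and 15 fell (35.7%), against 21.3% and 18.7% over all genes. Among the falls were Pttg1, for securin (2.04-fold), Hmmr (1.59-fold), Top2a (1.37-fold) and Aurka (1.29-fold). Foxm1, a transcription factor of this phase, rose 1.49-fold. Of 46 tested G1/S and replication genes 13 rose (28.3%) and 6 fell (13.04%), shares near those over all genes. The count of 13 was 8 without Luc replicate 4 or Jmjd2c replicate 2. Ccnd2, for cyclin D2, rose 2.71-fold and E2f3 1.98-fold, while Ccnd3 fell 1.49-fold. Among 33 p53 targets 15 rose (45.5%, against 21.3% over all genes) and 5 fell (15.2%, against 18.7%). With each array left out in turn 11 to 13 rose and 5 to 7 fell. Perp, for a membrane protein of desmosomes, rose 2.57-fold whereas Ccng2 fell 2.83-fold. On Luc replicates 1 to 3 Ccnd2 read 792 to 970 and Ccnd3 236 to 270, above both groups. Pttg1, Top2a and Ccng2 lay below both there, and Hmmr, Aurka, Foxm1, E2f3 and Perp neither wholly above nor wholly below both. The median of Luc replicates 4 to 6 minus Luc replicates 1 to 3 was 0.37 over the G2/M genes and -0.32 over the G1/S genes, and its part was not tested.

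Of 18 tested heat shock and chaperone genes 7 rose (38.9%, against 21.3% over all genes) and 0 fell in limma, and the count of 7 was 4 without Luc replicate 5. Hsph1, a cofactor of Hsp70, read 2353, 2373 and 2467 in Luc and 4376, 4662 and 4474 in Jmjd2c (log2 change 0.91 ± 0.06, adjusted p = 0.000102), and Dnajb1, for an Hsp40, rose 1.68-fold. Of 18 tested mesenchymal and fibroblast genes 4 rose and 10 fell. S100a6 rose 2.97-fold, Loxl1, for a lysyl oxidase, fell 2.10-fold and Fbln2, for a fibulin, at least 2.08-fold. The 10 falls became 6 without Luc replicate 4 or 6, and 6 with the filter at above 32 on all 6 arrays. Of 18 tested imprinted genes 6 rose, among them Grb10 (2.50-fold) and Dlk1 (1.73-fold), and 2 fell, each of which lost its call in 5 of the 6 fits without 1 array. Ribosomal protein genes rose in 3 and fell in 15 of 69 cases, and oxidative phosphorylation genes rose in 3 and fell in 10 of 68, with median log2 changes of -0.12 and -0.05. Their counts of falls rested on single arrays: without Luc replicate 4 they were 5 and 2, without Luc replicate 5 they were 4 and 4, and without Luc replicate 6 they were 7 and 3. Without Jmjd2c replicate 1 they were 5 and 2, and without Jmjd2c replicate 2 they were 8 and 5. The ribosomal falls were also 6 with quantile normalization and 40 with the intensity trend, and those of oxidative phosphorylation were 19 with that trend. The count of ribosomal genes that rose was 1 without Luc replicate 4.

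The other lists are given by their counts, beside 21.3% of all genes that rose and 18.7% that fell. Rises in the Wnt list (26.7%) and in heparan sulfate synthesis (26.1%) lay near the first of these shares. Of the genes tested, 7 of 20 basement membrane genes rose and 5 fell, and 7 of 21 keratin and junction genes rose and 3 fell. In the Nodal and activin list 3 of 16 rose and 7 fell, in the Wnt list 4 of 15 rose and 3 fell, and in the LIF-Stat3 list 4 of 19 rose and 7 fell. In the ATF4 amino acid stress list 5 of 30 rose and 11 fell, and among ER chaperones 7 of 20 rose and 2 fell. In heparan sulfate synthesis 6 of 23 rose and 2 fell, and among histone genes 8 of 18 rose (44.4%) and 4 fell (22.2%). Of 7 genes of the 2-cell stage 4 rose (57.1%) and 0 fell in limma. The Notch list held 2 rises and 5 falls among 15, the interferon list 2 and 4 among 12, and the retinoic acid and Hox list 4 and 2 among 9. DNA methylation and TET genes held 2 of each among 12, and mesoderm genes 1 of each among 6. Several of these counts moved with 1 array. Without Luc replicate 4 there were 2 rises among ER chaperones, 5 among histone genes, 4 falls in the Nodal list, 3 in the Notch list, 2 in the interferon list and 1 in the retinoic acid and Hox list. Without Luc replicate 5 there were 3 rises among ER chaperones, 5 among histone genes, and 6 falls in the ATF4 list, 4 in the LIF-Stat3 list, 4 in the Nodal list, 3 in the Notch list and 2 in the interferon list. Without Luc replicate 6 there were 3 rises in the ATF4 list, 2 falls in the interferon list and 1 fall in the retinoic acid and Hox list. Without Jmjd2c replicate 1 there were 2 rises in the ATF4 list, 3 among ER chaperones, 4 among histone genes and 4 among keratins and junctions, with 4 falls in the Nodal list and 3 in the Notch list. Without Jmjd2c replicate 2 there were 3 rises in the ATF4 list, 2 among ER chaperones and 4 among histone genes, with 7 falls in the ATF4 list, 4 in the LIF-Stat3 list and 4 in the Nodal list. Without Luc replicate 4, Luc replicate 5 or Jmjd2c replicate 1 there was 1 rise in the Notch list and 0 in the interferon list by limma, and without Jmjd2c replicate 2 there was 1 in the interferon list. Mesoderm genes held 2 rises without Jmjd2c replicate 1 or 3, BMP genes 2 falls without Luc replicate 6 or Jmjd2c replicate 1, and fatty acid genes 2 rises without Luc replicate 6. The G2/M list held 1 rise without Luc replicate 5.

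In 24 of the 38 lists the median of Luc replicates 4 to 6 minus Luc replicates 1 to 3 was larger in size than the median knockdown change, and in 17 of these it had the opposite sign. Both medians share Luc replicates 4 to 6. The difference between Luc cultures was 0.72 for the ATF4 list, 0.59 for p53 targets, -0.75 for genes of the 2-cell stage and -0.50 for core pluripotency, and its part in these lists was not tested. Where a named gene had a further tested probe, a probe could differ from the brightest. The further probe was not called for Pdgfra, Dusp6, Id1, Smad1, Ccnd2, Ccnd3, Sall4, and 1 each of the further probes of Pfkp and E2f3.

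The change in the Jmjd2c arrays was also set against the change of the Jmjd1a arrays from their own Luc arrays, replicates 1 to 3, in 1 limma fit of all 12 arrays. Of 15853 probes tested there, the Jmjd2c change was higher than the Jmjd1a change on 1878 (11.8%) and lower on 1966 (12.4%). Most endoderm genes moved apart. On 19 of the 25 genes the Jmjd2c change was higher and on 2 it was lower, with median log2 changes of 0.77 for Jmjd2c and -0.44 for Jmjd1a. The change of Cubn was -1.79 in the Jmjd1a arrays, and the difference between the changes was 4.63 ± 0.17 (adjusted p = 1.51e-08). Gata6 changed by -1.24 there (difference 3.35 ± 0.12, adjusted p = 1.21e-08), Foxq1 by -1.53 (difference 4.28 ± 0.11) and Srgn by -1.62 (difference 3.54 ± 0.09). In glycolysis and hypoxia the Jmjd2c change was lower on 20 of 31 genes and higher on 0, with medians of -0.57 and -0.04. Pgk1 changed by -0.04 in the Jmjd1a arrays (difference -0.72 ± 0.08, adjusted p = 6e-05), and Egln3 by -0.16 (difference -1.33 ± 0.08, adjusted p = 1.21e-06). Of the germline list 5 differences were higher and 6 lower among 17. Stra8, Mov10l1 and Smc1b among germline genes lay under the floor on every array of Luc replicates 1 to 3 and of Jmjd1a. The same held for Lama1 of the endoderm list and Bnip3 of the glycolysis list. The differences of these genes therefore follow from the Jmjd2c change alone. For Rec114 and Aurkc, which fell in both knockdowns, the difference did not pass the test (0.21 ± 0.11 and -0.29 ± 0.11, adjusted p = 0.198 and 0.0687). Tcl1 also fell in both (difference 0.12 ± 0.16, adjusted p = 0.628). On the Jmjd1a arrays Tcl1 read 14.1 to 22.0, under the floor, and Aurkc 16.3 to 33.5, under it or just above. The floor understates these Jmjd1a falls, so that the differences of Tcl1 and Aurkc cannot show whether the falls were alike.

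Of the 15 largest rises 14 differed from the Jmjd1a change in the direction of the Jmjd2c change, and of the 15 largest falls 12 did. These genes were chosen on the Jmjd2c change, so the counts are a description. Among the falls, Smc1b, Zc3h6, Crtac1 and Pygl lay under the floor on every array of Luc replicates 1 to 3 and of Jmjd1a. No Jmjd1a change could be seen for them, so that they had to differ. Each knockdown lies in its own set of arrays with its own Luc cultures. A difference in how the sets were grown or processed and a difference between the hairpins cannot be told apart in this contrast beyond what each set's own Luc arrays remove.

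**Figure D5:**
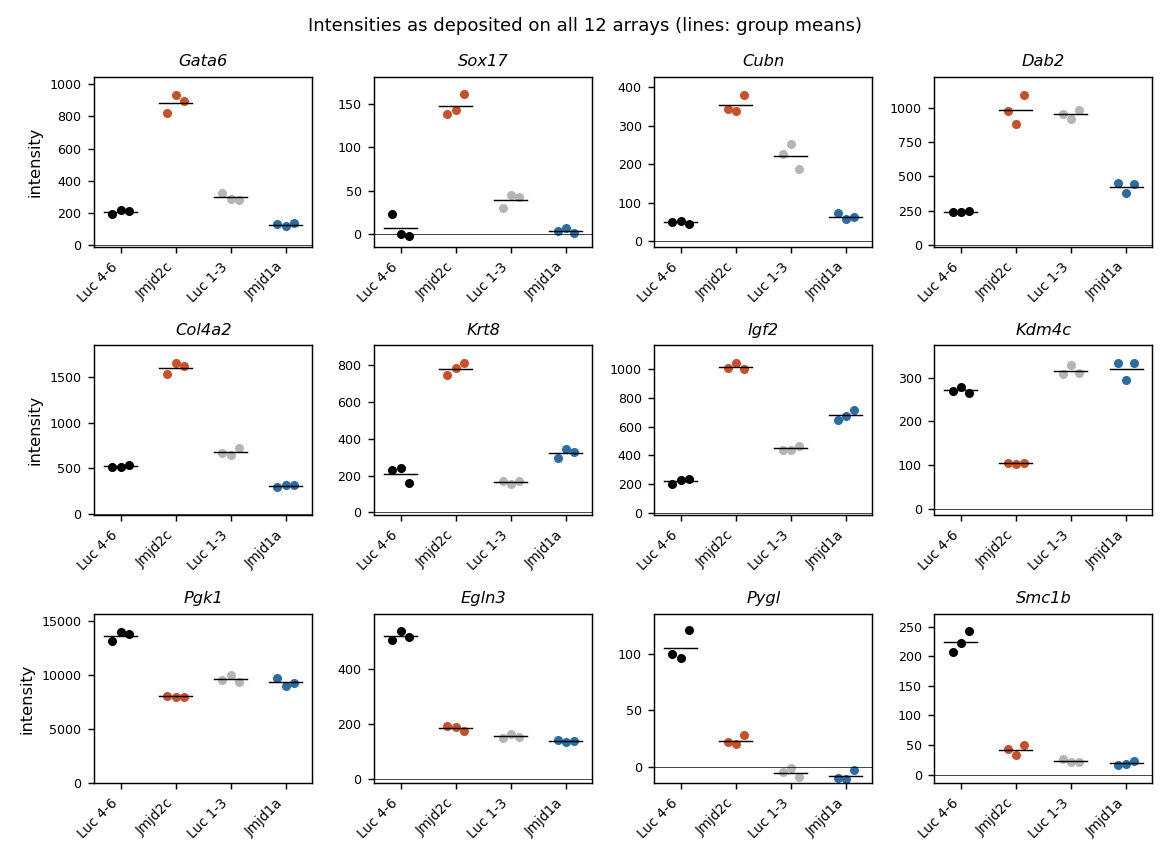
Intensity as deposited (vertical axis, linear) of 12 genes on all 12 arrays, by group; points are arrays and lines group means. Gata6, Sox17 and Igf2 are highest on the Jmjd2c arrays and Kdm4c is lowest there, while Egln3, Pygl and Smc1b are highest on Luc replicates 4 to 6.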

How the data were processed

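Illumina one-colour bead arrays measured total RNA of E14 cultures, and the 3 Jmjd2c arrays were compared with Luc replicates 4 to 6. The deposited values are linear intensities, with negative values after background subtraction; the subtraction and the scaling between arrays are not given in the sources used here. Intensities were floored at 32 and taken to log2, with no further normalization, and the filter kept 14919 of 46133 probes, those brighter than 32 on 3 or more of the 6 arrays. The mean per array gives no count of molecules, so precision rests on 3 arrays a group.

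limma 3.58.1 in R 4.3.3 was fitted to the 6 arrays (residual degrees of freedom 4) with Benjamini-Hochberg adjustment over all tested probes; the procedure was tested on simulated data. The difference between the knockdowns was fitted on all 12 arrays. Of the probes in the platform's annotation 29542 have 1 symbol and 11 several, and 29484 matched a current gene by gene ID, with 0 symbols updated. The tested probes with 1 symbol, 11822, cover 8841 genes, each read by its probe of highest mean log2, and 3097 tested probes had no symbol here. Python 3.11.15, pandas 2.3.3, numpy 2.4.6 and matplotlib 3.10.9 made the tables and figures.

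The comparison, the gene lists and the genes were chosen with earlier results of these data known. The rule named the Kdm4 genes, the 15 largest rises and falls without overlap, the 5 most intense genes each way changed at least 1.5-fold, for each list at most 3 called genes in each direction, by size, and Pou5f1, Sox2, Nanog, Klf4, Esrrb, Zfp42, Gata6 and Sox17. Named outside it, after their values were seen, were Hk1, Hk2, Pfkl, Pfkp, Pfkm, Ldha, Pkm, Slc2a1, Slc2a3, Gapdh, Pgam1, Vegfa, Egln1, Adm, Bnip3, Ppp1r3c, Ppp1r3b, Pgm1, Gys1, Lama1, Lamb1, Lamc1, Lrp2, Serpinh1, Amn, Gata4, Foxa1, Dazl, Kit, Mov10l1, Fgf10, Spry4, Etv5, Cdx2, Gata2, Tead4, Tbx3, Tfcp2l1, Smad1, Smad5, Kdm3a, Dppa2, Zfp281, Otx2, Fbln2, Loxl1, Pdgfrb, Top2a, Aurka, Pdk3, P4ha1, Pfkfb4, Ddit4, Higd1a, Spry1, Spry2, Spred1, Dusp5 and Il17rd. The alternatives were floors of 16 and 64, quantile normalization, median scaling, a filter on all 6 arrays, no filter, an intensity trend with a robust prior, the spread from all 12 arrays, and each array left out in turn.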

Additional observations from a re-analysis of the deposited data

How the results depend on the processing

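The count of changed probes depended on the floor and the filter. With a floor of 64 in place of 32, 389 probes rose and 551 fell by at least 1.5-fold. With no filter, which adds dim probes to the adjustment, 1142 probes rose and 1148 fell, and 368 rose by at least 1.5-fold. The other settings kept all 4 counts within 1.5 times. With each array left out in turn, 2185 to 2661 probes rose and 1942 to 2400 fell, 570.0 to 628 rose and 750 to 875 fell by at least 1.5-fold, and the log2 change of Kdm4c ranged from -1.40 to -1.37. Median scaling gave 2733 rises and 2868 falls.

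Of 269 named genes that were called, 36 lost their call with a floor of 64, 80 with no filter, 3 with a floor of 16, and 2, 1, 0 and 2 with quantile normalization, median scaling, the intensity trend and the spread from all 12 arrays. Of the genes given above, the floor of 64 ended the calls of Kdm5a, Fgf4, Fgf15, Fos, Acta2, Adm, Bnip3, Lama1, Foxa1, Mov10l1, Cdx2, Gata2, Tead4, Fbln2 and Il17rd, and the lack of a filter those of Jarid2, Jmjd1c, Sall4, Fgf4, Hnf4a, Fos, Hmmr, Tex19.1, Thy1, Nanog, Pfkm, Slc2a3, Bnip3, Ppp1r3b, Lamb1, Lamc1, Dazl, Gata2, Smad5, Dppa2, Aurka, Spred1 and Il17rd. None turned direction, and 9 to 20 lost their call when 1 array was left out. Uncalled genes near 0 changed sign: with 1 array left out, Kdm4a ranged from -0.17 to 0.10, Pou5f1 from -0.032 to 0.065, Klf4 from -0.092 to 0.0017, Gata4 from -0.068 to 0.10, Spry1 from -0.14 to 0.19 and Spry2 from -0.016 to 0.086. With quantile normalization Pou5f1 was -0.0018 and Spry1 0.012. Kdm4a turned positive without Luc replicate 4 (0.0030), Luc replicate 5 (0.046) or Jmjd2c replicate 2, Pou5f1 negative without Luc replicate 6, Klf4 positive without Luc replicate 5, Gata4 negative without Jmjd2c replicate 3, Spry1 positive without Luc replicate 6 (0.042) or Jmjd2c replicate 2, and Spry2 negative without Luc replicate 5 or Jmjd2c replicate 2 (-0.014). Ddit4, which was not called, passed with quantile normalization, median scaling, the filter on all 6 arrays, the intensity trend, the spread from all 12 arrays and without Jmjd2c replicate 3. The causes were not tested.

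For the difference between the knockdowns, whose alternatives were chosen after seeing the data, 3347 to 3937 probes passed under other floors, normalization and filter, and 3179 to 3532 without 1 array. The exact test of Kdm4c, also with alternatives added later, gave 0.1, the smallest p these splits allow, under each, which says nothing of stability. No paired analysis was possible because Luc replicates 4 to 6 and Jmjd2c replicates 1 to 3 share no replicate number and no label pairs them. No library among the 6 was doubted. Values near the floor have no order, 3 arrays a group limit precision, and 1 hairpin is named per target.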
